A study of Mus musculus with 20 samples.

Results

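The insulin-like growth factor (IGF) system of the loaded plantaris was followed through 10 genes, chosen by name as the IGF ligands (Igf1, Igf2), the receptors (Igf1r, Igf2r) and the binding proteins (Igfbp2, Igfbp3, Igfbp4, Igfbp5, Igfbp6, Igfbp7). All 10 were found among the 54532 genes of the count tables, of which 30194 had at least 1 count. RNA-seq was made from plantaris, a calf muscle, of male C57BL/6J mice aged 5 months, 10 days after surgery. A total of 10 mice entered the study, 5 with sham surgery and 5 with bilateral synergist ablation (mechanical overload, MOV), in which part of the gastrocnemius-soleus complex is removed so that the plantaris takes over its load. During surgery every mouse received a control lentivirus in the left plantaris and a lentivirus carrying a miR-1a-3p mimic in the right one, so that each surgery had a control and a mimic arm (sham control and sham mimic, MOV control and MOV mimic) with 5 libraries per arm. All groups therefore shared a virus injection, and no uninjected muscle was part of the series. The vectors carried TurboGFP and a CMV promoter, which can be active in cells other than muscle fibres. miR-1 is an abundant microRNA of muscle, and the study asked whether keeping it from falling during MOV changes muscle growth. By the paper's qPCR, the mimic gave no rise of miR-1 in sham plantaris and a smaller fall of it in MOV plantaris.

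IGF-I and IGF-II are secreted peptides that bind the tyrosine kinase receptor encoded by Igf1r, which signals through IRS proteins to PI3K, AKT and mTORC1 and so raises protein synthesis. The receptor encoded by Igf2r takes up IGF-II and carries it to lysosomes for breakdown. The binding proteins hold IGFs in blood and in the matrix around cells, where they can either keep the ligand from its receptor or store it. In muscle, IGF-I is made by fibres, by resident fibroblast-like cells and by immune cells, and Igf2 is an imprinted gene known to be switched on as myoblasts differentiate.

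Total counts ran from 12036360 to 23056525 per library, with a median of 16940547.5, and levels are given as CPM, the counts scaled to the library's total after TMM normalization. All 9 muscle fibre markers, among them Ckm and Acta1, were detected in every library, with a summed level between 74060 and 203100 CPM. Libraries of a group differed in their connective tissue content. The summed level of 8 markers of fibro-adipogenic progenitors, the fibroblast-like cells of muscle, was 1051 CPM in sham control 1 and 1486 CPM in sham mimic 1 against medians of 6517 and 6806 CPM in their groups. In MOV control it was 3714 CPM in replicate 4 and 2453 CPM in replicate 5, with a median of 8106 CPM. In bulk tissue, fewer cells of a type and less RNA per cell cannot be told apart. The replicates are named by number only in the labels, so the p-values measure the spread between these libraries, and libraries of the left and right leg come from the same mice.

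The genes lie on the following stretches of GRCm38 in the RefSeq annotation. Igf1 is on chromosome 10 from 87858265 to 87937047 and Igf2 on chromosome 7 from 142650768 to 142666816. Igf1r is also on chromosome 7, from 67952257 to 68233668, and Igf2r on chromosome 17 from 12682406 to 12769706. Igfbp2 (72824480 to 72852474) and Igfbp5 (72858065 to 72874865) are neighbours on chromosome 1, and Igfbp3 (7206086 to 7215498) and Igfbp4 (99040005 to 99052655) are both on chromosome 11. Igfbp6 is on chromosome 15 from 102144186 to 102149512 and Igfbp7 on chromosome 5 from 77349240 to 77408045. Reads were counted per gene, over exons. Igf1, Igf2, Igf1r, Igf2r and Igfbp7 overlap other annotated genes (Igf1os, Igf2os and Mir483, Gm51487 and Gm51488, Airn, and Gm34648 and Polr2b, respectively), and since the strand setting of the counting was not given in the sources used here, reads of overlapping exons may be shared.

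Since the virus carried a miR-1 mimic, the 3′ UTRs were searched on the transcript strand for the letters that pair with the miR-1a-3p seed. The motifs were the 8mer ACATTCCA, the 7mer-m8 ACATTCC, the 7mer-A1 CATTCCA and the 6mer CATTCC, each match being counted once under its longest form, in the longest annotated 3′ UTR of GENCODE on the older build NCBIM37. The 4 matches of 7 or more letters among the members are shown because they name the transcripts on which a mimic could act directly. Capitals mark the match, and the flanking bases are in lower case.
Igf1 8mer: tatacaagtaaACATTCCAacatcgtct
Igf2 7mer-A1: ttcttcactggtCATTCCAtcacaaatg
Igf2 7mer-m8: cgatttgaaccACATTCCccaaaacaag
Igfbp5 7mer-A1: aagactaaaatgCATTCCAtccctctga
Counted from the first base of the 3′ UTR, the Igf1 match spans bases 189 to 196 of 6347. The Igf2 matches span bases 639 to 645 and 945 to 951 of 3048, and the Igfbp5 match spans bases 597 to 603 of 4445. Igf1 had 2 further 6mers and Igf2 had 1. No match was found in the other 7 members, but the 3′ UTR annotated for Igf1r there was 197 bases long and those of Igfbp2, Igfbp6 and Igfbp7 were between 209 and 312 bases long. Among 20007 genes with a 3′ UTR, 3.46% held an 8mer, 6.09% a 7mer-m8, 7.89% a 7mer-A1, 16.4% a 6mer and 27.4% any of these. These matches describe the sequence only and are not evidence of binding. Coding sequences were not searched, though the paper's exploratory eCLIP-seq placed most miR-1 target sites there.

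The first question was which members differ between overloaded and sham muscle under the control virus. Igf2 and Igfbp2 stood higher in MOV control and Igfbp6 lower, whereas Igf1 varied as much within the groups as between them. Igfbp4, Igfbp5, Igfbp7 and Igfbp3 differed by less than their standard errors or little more. By edgeR's quasi-likelihood test with Benjamini-Hochberg adjustment over 14974 genes, 0 of 10 members were DEGs, beside 0.00668% of all genes, which is the single gene Nos1, named after its value was seen. At an unadjusted p under 0.05 in the same fit, 5 of 10 members passed (Igfbp6, Igf2, Igfbp2, Igf2r and Igf1r) beside 18.2% of all genes. DESeq2 on the same genes called 3 of 10 members, Igf2 and Igfbp2 higher and Igfbp6 lower, beside 6.10% of all genes, and limma with voom called 0. Igfbp2 passed the filter on low counts in this comparison but not between the sham groups, so that its entry rested on the MOV control libraries, where it is high. MOV control and sham control ranges were free of overlap for 0 of 10 members, beside 4.89% of all genes. The median log2FC was 0.30 over the members and 0.04 over all genes.

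**Figure D1:**
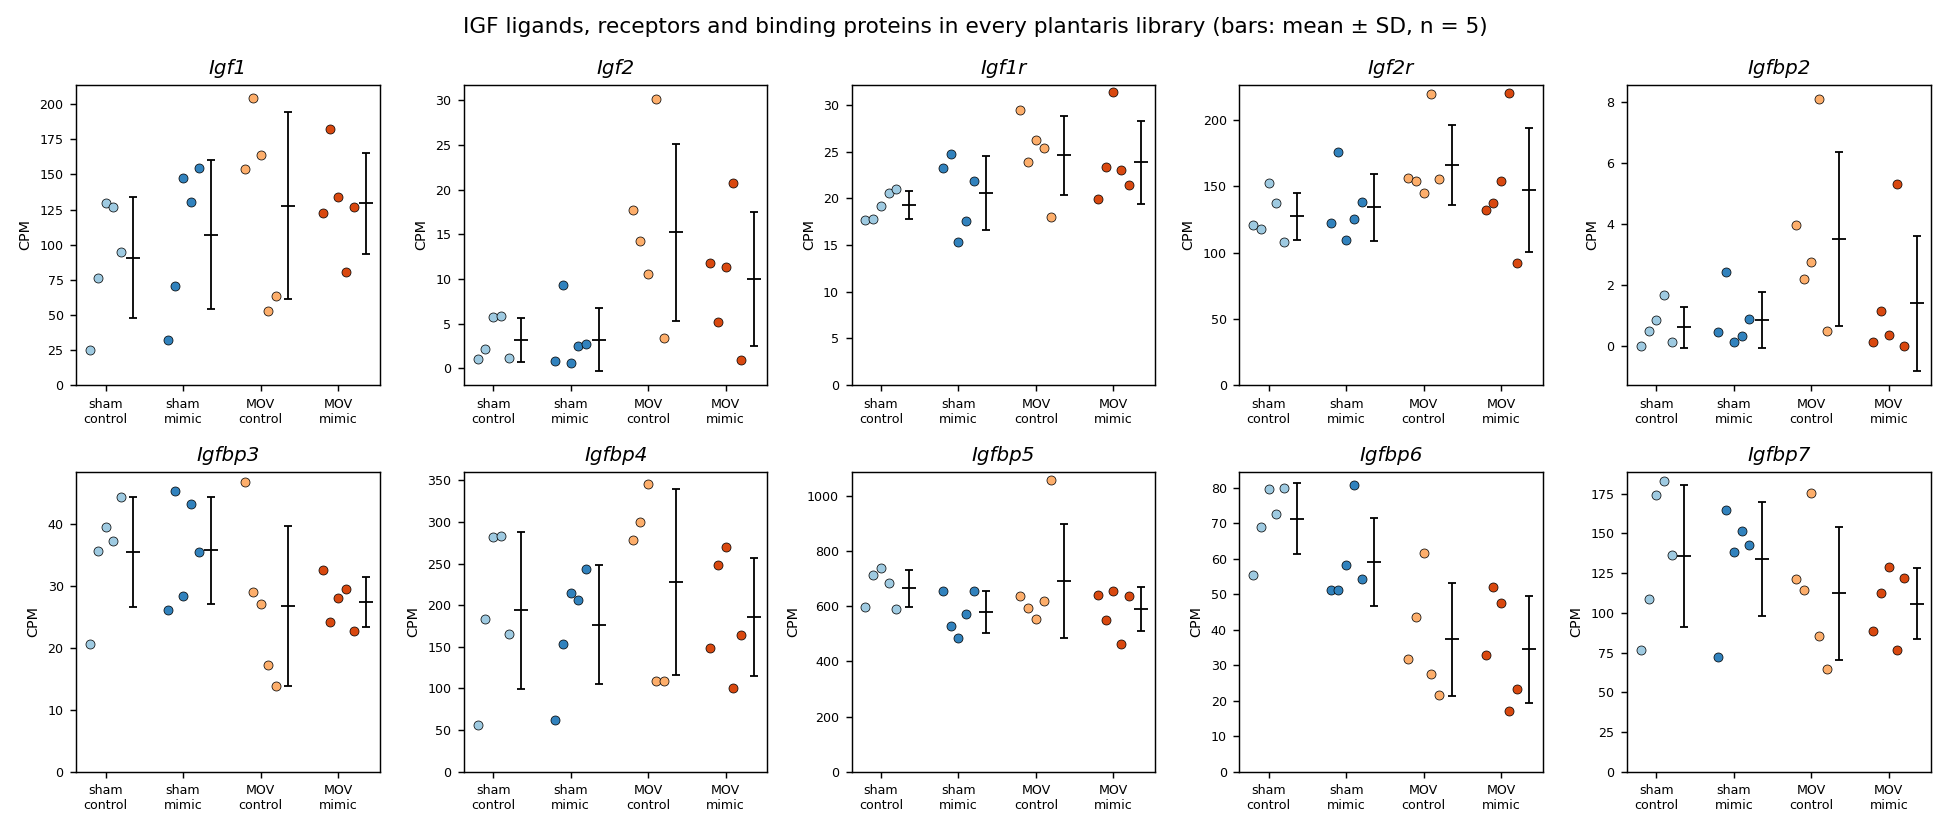
Level of each of the 10 genes in CPM (y axis, linear, from 0) in every library of the 4 groups (x axis). Each point is 1 library and the bars beside the points give the mean ± SD of 5 libraries. Igf2 and Igfbp2 reach their highest values in MOV libraries, Igfbp6 is lower there, and the groups overlap in all panels.

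Among the ligands, Igf2 was at 1.01, 2.20, 5.79, 5.93 and 1.14 CPM in sham control 1 to 5. In MOV control 1 to 5 it was at 17.7, 14.3, 10.5, 30.2 and 3.36 CPM. Replicates 1 to 4 of MOV control lay above every sham control library and replicate 5 lay within the sham range. The means were 15.2 ± 9.93 CPM (SD, n = 5) and 3.21 ± 2.46 CPM (SD, n = 5), and the counts behind them ran from 13 to 476. The log2FC was 2.23 (SE 0.59, 95% interval 0.96 to 3.51), with an edgeR adjusted p of 0.0829 and a DESeq2 adjusted p of 0.00333. Without MOV control 5, the lowest of its group in Igf2, edgeR called Igf2 with an adjusted p of 0.0450. That removal raised the calls over all genes from 1 to 318, and no other removal of a library called a member.

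Under the mimic virus Igf2 did not pass either test. It was at 0.84, 9.32, 0.64, 2.51 and 2.77 CPM in sham mimic 1 to 5. In MOV mimic 1 to 5 it was at 11.8, 5.20, 11.4, 20.8 and 0.95 CPM. Sham mimic 2 lay above MOV mimic 2, and MOV mimic 5 lay below 3 of the sham mimic libraries, so the groups overlapped on both sides. The log2FC was 1.63 (SE 0.76, 95% interval -0.02 to 3.29), with adjusted p = 0.376 by edgeR and 0.223 by DESeq2.

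Markers of regenerating fibres are given beside Igf2. Of the 5 markers, edgeR called 0 and DESeq2 called 1, higher, in MOV control against sham control, beside 6.10% of all genes in DESeq2, and 1 was higher at an unadjusted p under 0.05 in edgeR, beside 18.2%, with a median log2FC of 1.27. Neither tool called any in the mimic comparison, where the median was 0.95. The summed level of Myh3, Myh8, Chrng, Chrna1 and Myl4, which encode developmental forms of contractile proteins and subunits of the acetylcholine receptor, ran from 48.0 to 812 CPM in sham control and from 429 to 1555 CPM in MOV control. It was 812 and 661 CPM in sham control 3 and 4, the libraries with the most Igf2 in that group, and 1697 CPM in sham mimic 2, the library with the most Igf2 among all sham libraries. Under the mimic virus the sum ran from 56.3 to 1697 CPM in sham and from 71.1 to 1438 CPM in MOV, with the lowest MOV value in MOV mimic 5, which had the least Igf2 of the MOV libraries. The 8 markers of satellite cells and myoblasts summed to between 47.7 and 107 CPM in sham control and to between 88.0 and 222 CPM in MOV control. No marker of either list was at 0 throughout a group, and their part in the Igf2 result was not tested.

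Igf1, the main growth factor of adult muscle in the system, was at 24.7, 76.5, 129.7, 127 and 95.1 CPM in sham control 1 to 5. In MOV control 1 to 5 it was at 154, 205, 164, 52.4 and 63.3 CPM. MOV control 1, 2 and 3 lay above every sham control library, and replicates 4 and 5 each lay below 4 of the 5 sham libraries. The means were 127.7 ± 66.7 CPM and 90.6 ± 43.1 CPM (SD, n = 5 each), a log2FC of 0.50 (SE 0.44, 95% interval -0.45 to 1.45) with an edgeR adjusted p of 0.580. The libraries with little Igf1 were those with little of the fibro-adipogenic markers, sham control 1 in the one group and MOV control 4 and 5 in the other, and the 8 macrophage markers were low in the same libraries. They summed to 238 CPM in sham control 1 and to 233 and 249 CPM in MOV control 4 and 5, against medians of 781 and 655 CPM, with 0 of 8 called by either tool between these groups. The part of these cells in the Igf1 levels was not tested. Under the mimic virus Igf1 was between 32.4 and 154 CPM in sham and between 80.7 and 182 CPM in MOV, with a log2FC of 0.28 (SE 0.36).

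The receptors showed small differences with a narrow spread. Igf1r, the signalling receptor, was at 17.7, 17.8, 19.1, 20.5 and 21.0 CPM in sham control 1 to 5. In MOV control it was at 29.5, 23.9, 26.2, 25.4 and 18.0 CPM. Of the MOV control libraries, 4 lay above the whole sham range and replicate 5 lay inside it. The log2FC was 0.36 (SE 0.14, 95% interval 0.05 to 0.67), which did not pass the edgeR test (adjusted p = 0.204). Igf2r, the clearance receptor for IGF-II, was at 121, 118, 153, 138 and 108 CPM in sham control and at 156, 154, 145, 220.1 and 156 CPM in MOV control. Its MOV control libraries were above 4 of the 5 sham control libraries throughout, and sham control 3 reached into the MOV range. The log2FC was 0.39 (SE 0.15, 95% interval 0.07 to 0.71) with an edgeR adjusted p of 0.184. In the mimic groups the log2FC was 0.23 (SE 0.17) for Igf1r and 0.14 (SE 0.20) for Igf2r.

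Among the binding proteins, Igfbp6, which prefers IGF-II over IGF-I, was lower in MOV under either virus. It was at 55.5, 68.8, 79.5, 72.6 and 79.9 CPM in sham control 1 to 5. In MOV control 1 to 5 it was at 31.7, 43.7, 61.6, 27.6 and 21.7 CPM. MOV control 3 alone reached into the sham control range. The log2FC was -0.93 (SE 0.24, 95% interval -1.45 to -0.40), with an adjusted p of 0.0809 by edgeR and of 0.00856 by DESeq2. In sham mimic it was at 51.2, 51.0, 58.1, 80.7 and 54.3 CPM and in MOV mimic at 32.8, 51.9, 47.6, 17.0 and 23.2 CPM. All 5 MOV mimic values lay below the sham mimic mean of 59.1 CPM, and MOV mimic 2 overlapped the sham mimic range. The log2FC there was -0.77 (SE 0.27), with an adjusted p of 0.305 by edgeR and 0.149 by DESeq2.

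Markers of connective tissue and vessels are given beside Igfbp6. The libraries lowest in Igfbp6 within their own group, sham control 1 and MOV control 4 and 5, were those there with the least of the 8 fibro-adipogenic markers (1051, 3714 and 2453 CPM in sum). Under the mimic virus MOV mimic 4 was lowest in both (17.0 CPM of Igfbp6 and 4232 CPM of the markers), but the orders differed elsewhere. Sham mimic 2 and 1 had 51.0 and 51.2 CPM of Igfbp6 with 4387 and 1486 CPM of the markers, and MOV mimic 5 and 1 had 23.2 and 32.8 CPM with 5801 and 4908 CPM. In MOV control against sham control edgeR and DESeq2 called 0 of these 8, 1 was lower at an unadjusted p under 0.05, and their median log2FC was -0.37. Of 8 endothelial markers in MOV control against sham control, edgeR called 0 and DESeq2 called 1, lower, with 3 lower at an unadjusted p under 0.05 in edgeR and a median log2FC of -0.35, beside 6.10% of all genes called by DESeq2 and 18.2% at an unadjusted p under 0.05. Of 7 markers of pericytes and smooth muscle, edgeR called 0 and DESeq2 called 3, lower, and the median log2FC was -0.02. In MOV mimic against sham mimic, edgeR called 0 of both lists and DESeq2 called 2 endothelial markers and 1 pericyte and smooth muscle marker, all lower, beside 1.48% of all genes. At an unadjusted p under 0.05 in edgeR, 5 of 8 and 3 of 7 were lower there, beside 13.4% of all genes, with medians of -0.35 and -0.31. The 8 endothelial markers summed to between 306 and 375 CPM in sham control and between 174 and 357 CPM in MOV control, and to between 337 and 459 CPM and between 256 and 298 CPM in the mimic groups. The 7 markers of pericytes and smooth muscle summed to between 479 and 549.8 CPM and between 239.9 and 540.0 CPM under the control virus, and to between 485 and 634 CPM and between 351 and 433 CPM under the mimic. All markers of the 3 lists were detected in every library, and their part in the Igfbp6 result was not tested.

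Igfbp2, a binding protein abundant in fetal tissues, was the least abundant member. It was at 0, 0.49, 0.85, 1.68 and 0.13 CPM in sham control 1 to 5, from 0, 8, 16, 28 and 2 counts. In MOV control 1 to 5 it was at 3.98, 2.22, 2.77, 8.12 and 0.50 CPM, from 79, 51, 52, 128 and 7 counts. As for Igf2, replicates 1 to 4 of MOV control lay above all sham control libraries and replicate 5 lay among them. The log2FC was 2.45 (SE 0.83, 95% interval 0.66 to 4.24), with an adjusted p of 0.144 by edgeR, of 0.10 by edgeR without a filter on low counts and of 0.0353 by DESeq2. In sham control 1 the floor of 3 counts allows a level of up to 0.233 CPM.

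Under the mimic virus the sham and MOV values lay on both sides of each other. Igfbp2 was at 0.46, 2.43, 0.15, 0.35 and 0.88 CPM in sham mimic and at 0.15, 1.17, 0.38, 5.31 and 0 CPM in MOV mimic. Only MOV mimic 4 lay above the sham mimic range. In MOV mimic 5 the floor of 3 counts corresponds to 0.190 CPM. Igfbp2 did not pass the filter on low counts in this comparison and in that of sham mimic with sham control, so 9 members were tested there. Whether the effect of MOV on Igfbp2 depended on the virus was tested in the interaction over 20 libraries, in a fit that did not pair the legs. There the log2 difference was -1.75 (SE 1.47, 95% interval -4.81 to 1.31) with an unadjusted p of 0.246 in edgeR. It ran from -3.38 without MOV mimic 4 to -0.85 without sham mimic 2, and limma with voom gave -2.98 (unadjusted p = 0.0471, adjusted p = 0.995).

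Igfbp5, the most abundant binding protein of the muscle by CPM, was between 590 and 738 CPM in sham control and between 556 and 1058 CPM in MOV control. The log2FC was 0.07 (SE 0.18, 95% interval -0.33 to 0.46), and the highest value was that of MOV control 5, the other 4 libraries of that group lying between 556 and 637 CPM. Igfbp4, an inhibitor of IGF action that is cut by the protease encoded by Pappa, was between 56.5 and 283 CPM in sham control and between 109 and 346 CPM in MOV control, with a log2FC of 0.24 (SE 0.42). Igfbp7, a matrix protein with low affinity for IGFs, was between 76.8 and 183 CPM and between 64.6 and 175 CPM, with a log2FC of -0.27 (SE 0.28). Igfbp3, the main carrier of IGFs in blood, was between 20.7 and 44.4 CPM and between 13.9 and 46.8 CPM, with a log2FC of -0.39 (SE 0.30). None of these 4 differed beyond the spread of the libraries in edgeR, with unadjusted p between 0.210 and 0.726, and their ranges overlapped.

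**Figure D2:**
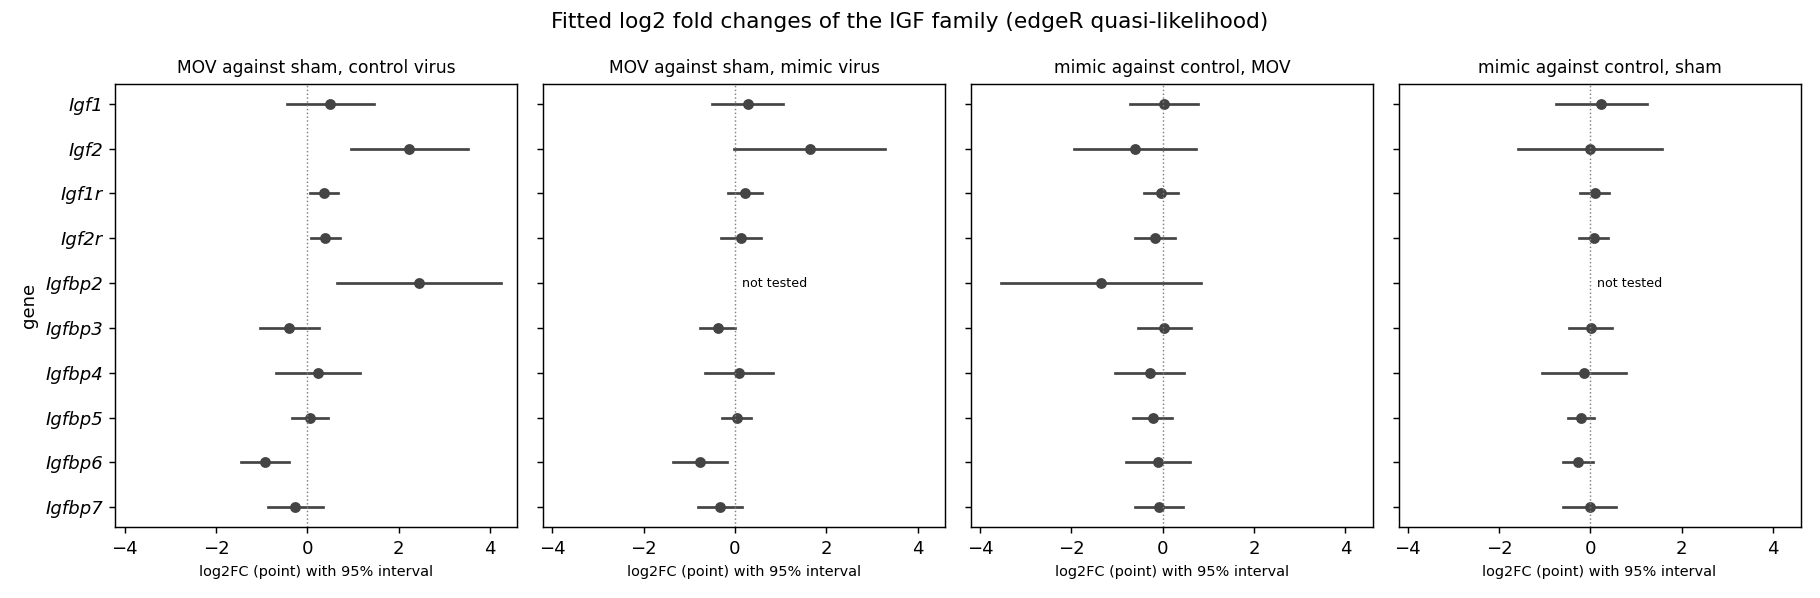
log2FC (x axis, points) with 95% intervals (lines) for the 10 genes (y axis) in 4 comparisons, from edgeR's quasi-likelihood fit. Igfbp2 was not tested in MOV against sham under the mimic virus or in mimic against control in sham. Under the control virus the intervals of Igf2, Igf1r, Igf2r, Igfbp2 and Igfbp6 exclude 0, under the mimic virus that of Igfbp6 does, and all intervals of mimic against control include 0.

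In MOV mimic against sham mimic, edgeR called 0 of 9 members, beside 0% of all genes, and DESeq2 called 0 of 9, beside 1.48% of all genes. At an unadjusted p under 0.05, 1 of 9 members passed in edgeR, Igfbp6, beside 13.4% of all genes. The ranges of 0 members were free of overlap, beside 2.73% of all genes. The comparisons of the mimic arm and of the control arm use different libraries, but the legs belong to the same mice. A difference of the MOV effect between the arms was tested by the interaction of surgery and virus, in fits that did not pair the legs. It was called for 0 of 10 members by edgeR (0% of all genes) and for 0 of 10 by DESeq2 (0.00619% of all genes), and 0 of 10 passed an unadjusted p under 0.05 in edgeR, beside 2.64% of all genes. The interaction for Igf2 was -0.60 (SE 1.02) and that for Igf1 was -0.22 (SE 0.61), both on the log2 scale.

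The second question was whether the mimic changes the members within a surgery. In MOV muscle the members with 3′ UTR matches of at least 7 letters did not differ beyond the spread of the libraries in the fit that did not pair the legs. The log2FC of mimic against control was 0.03 for Igf1 (SE 0.34, 95% interval -0.71 to 0.77), -0.61 for Igf2 (SE 0.62, 95% interval -1.95 to 0.72) and -0.22 for Igfbp5 (SE 0.19, 95% interval -0.64 to 0.20). The Igf2 value ran from -1.05 without MOV mimic 4 to -0.21 without MOV control 4, and that of Igfbp5 was -0.02 without MOV control 5 and -0.03 in limma with voom. The fold change furthest from 0 was that of Igfbp2, with a log2FC of -1.35 (SE 1.02, 95% interval -3.54 to 0.85), and its unadjusted p of 0.206 was the smallest among the members in that fit. Its value hung on single libraries and on the tool, being -2.98 without MOV mimic 4, -0.78 without MOV control 4, and -3.04 in limma with voom (unadjusted p = 0.0124, adjusted p = 0.833). The intervals of the ligands and of Igfbp2 span changes of more than 1 log2 unit between their ends. Without pairing, edgeR called 0 of 10 members (0% of all genes), DESeq2 called 0 of 10 (0.0197% of all genes), and 0 of 10 passed an unadjusted p under 0.05 in edgeR, beside 4.21% of all genes. With equal replicate numbers as a block, DESeq2 called 1 of 10 members, Igfbp2, lower in the mimic, beside 127 of 15220 genes. With that block edgeR called 0 members, and both fits are described with the processing below. Ranges did not separate for any of the 10 members, beside 0.762% of all genes.

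In sham muscle no member differed between mimic and control beyond the spread of the libraries in the unpaired fit. The paper found no rise of miR-1 under the mimic there. The log2FC lay between -0.27 (Igfbp6, SE 0.15) and 0.24 (Igf1, SE 0.46) over the 9 members tested. Igfbp6 had an unadjusted p of 0.101 and Igfbp5, with a log2FC of -0.20 (SE 0.13), one of 0.145. edgeR and DESeq2 each called 0 of 9 members, beside 0% of all genes with either tool. At an unadjusted p under 0.05 edgeR gave 0 of 9 members, beside 1.72% of all genes, and 0 members had ranges free of overlap, beside 0.339% of all genes.

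Levels of different genes were compared per length, as CPM per kb of exon sequence. In sham control the order was Igfbp7 (112 ± 36.7 CPM per kb, SD, n = 5), Igfbp5 (111 ± 11.2), Igfbp4 (82.2 ± 39.9) and Igfbp6 (64.1 ± 8.97), followed by Igf2r (13.5 ± 1.88), Igfbp3 (11.3 ± 2.85), Igf1 (9.13 ± 4.34), Igf1r (4.30 ± 0.34), Igf2 (0.59 ± 0.45) and Igfbp2 (0.34 ± 0.36). Neighbours among the 4 binding proteins at the top overlapped in range, as did Igf2r with Igfbp3, Igfbp3 with Igf1, Igf1 with Igf1r, and Igf2 with Igfbp2. The step from Igfbp6 down to Igf2r and that from Igf1r down to Igf2 showed no overlap in sham control and in sham mimic. In MOV control the order was led by Igfbp5 (115 ± 34.4), Igfbp4 (96.7 ± 47.2) and Igfbp7 (92.5 ± 34.6), with Igfbp6 at 33.5 ± 14.2, Igf1 at 12.9 ± 6.72 and Igf2 at 2.77 ± 1.81 CPM per kb. There Igfbp6 overlapped Igf2r (17.6 ± 3.23) in range and the top of the Igf2 range reached Igf1r. The exon length used for Igf1r was 4476 bases and included little 3′ UTR, so its level per kb is uncertain relative to the others.

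The make-up of the binding protein transcripts followed from these levels. Under the control virus the 6 genes summed to 380.5 ± 92.7 CPM per kb in sham and 348 ± 74.5 in MOV (SD, n = 5 each). Under the mimic virus the sums were 346 ± 58.1 and 305 ± 65.0 CPM per kb. Igfbp6 made up 17.3 ± 2.75% of this sum in sham control, with a range of 14.1 to 20.5%, and 9.38 ± 2.30% in MOV control, with a range of 6.50 to 12.3%. Its share under the mimic virus was 15.5 ± 2.82% in sham, with a range of 12.5 to 18.4%, and 9.87 ± 2.79% in MOV, with a range of 6.86 to 13.5%. The share of Igfbp6 was thus free of overlap between MOV control and sham control, and overlapped between the mimic groups. Igfbp5 held between 24.7 and 40.9% in sham control and between 20.6 and 58.8% in MOV control, and Igfbp2 never exceeded 1.73%.

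**Figure D3:**
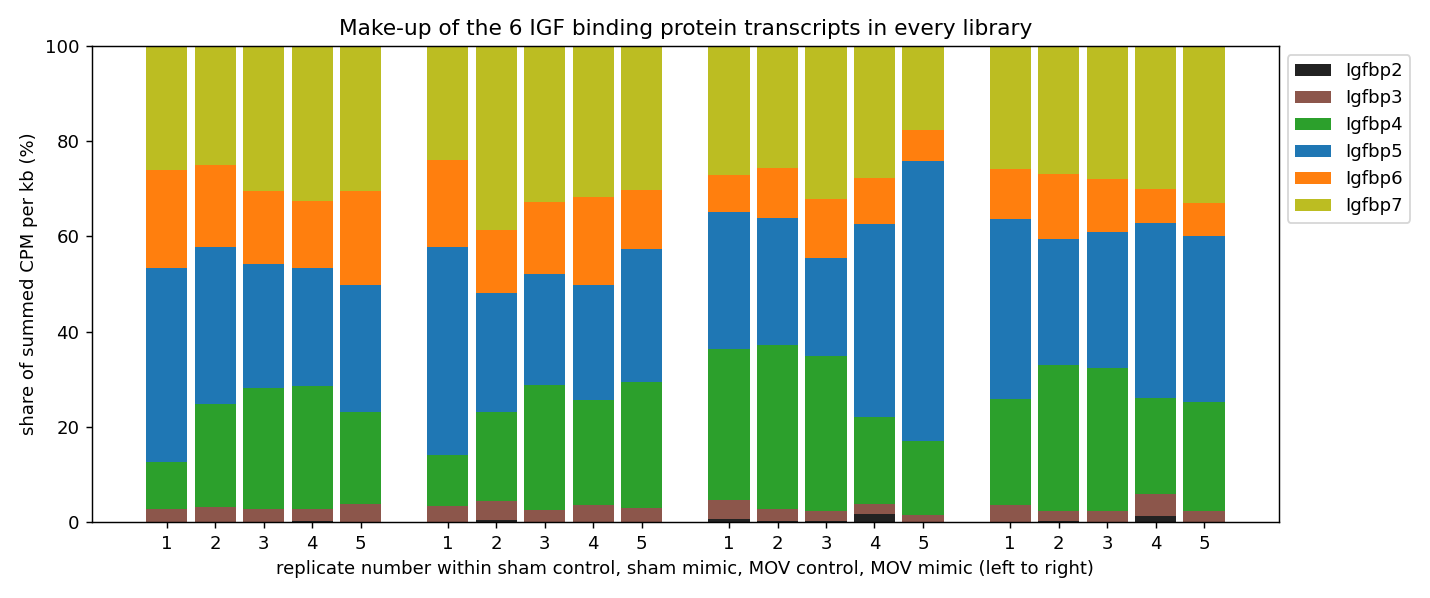
Share of each of the 6 binding protein genes in their summed CPM per kb (y axis, percent) for every library (x axis, replicates 1 to 5 of each group, with both sham groups on the left, both MOV groups on the right and control before mimic). The Igfbp6 segment is between 14.1 and 20.5% in sham control and between 6.50 and 12.3% in MOV control, and Igfbp5 reaches 58.8% in MOV control 5.

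Members were also compared with each other within groups, as deviations of log2 CPM from the group mean, over the 10 mice of each virus arm. Exact permutation within surgery gave two-sided p-values, adjusted with Benjamini-Hochberg over 90 relations (45 pairs in each arm). By Pearson's r, 10 of 90 relations passed the adjusted threshold, 6 in the control arm and 4 in the mimic arm, and by Spearman's rho 3 of 90 passed. Igf2 and Igfbp2 deviated together in the control arm, with r = 0.958 (permutation p = 0.000208, adjusted 0.0187) and rho = 0.952 (permutation p = 0.000833, adjusted 0.0312). The r was 0.929 without the 2 libraries farthest from the median of Igf2, 0.946 within sham and 0.977 within MOV. In the mimic arm r was 0.751 (permutation p = 0.0218, adjusted 0.127) and rho 0.648 (permutation p = 0.0673, adjusted 0.356). MOV mimic 1 and 3 had Igf2 at 11.8 and 11.4 CPM with Igfbp2 at 0.15 and 0.38 CPM.

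Igf1 and Igfbp4 deviated together in both arms. In the control arm r was 0.978 (permutation p = 0.00222, adjusted 0.0285) and rho 0.855 (permutation p = 0.00535, adjusted 0.0803), with r = 0.942 without the 2 libraries farthest from the median of Igf1. In the mimic arm r was 0.930 (permutation p = 0.000694, adjusted 0.0219) and rho 0.830 (permutation p = 0.00104, adjusted 0.0312), with r = 0.73 without the 2 farthest. Within sham and within MOV, r was 0.984 and 0.97 in the control arm, and 0.98 and 0.866 in the mimic arm. In the control arm Igfbp4 and Igfbp7 also passed, with r = 0.921 (adjusted permutation p = 0.0219) and rho = 0.976 (adjusted 0.0312). By Pearson's r alone, Igf1 with Igfbp7 (0.87), Igfbp4 with Igfbp6 (0.751) and Igfbp6 with Igfbp7 (0.839) passed there. The mimic arm had instead Igf2r with Igfbp2 (0.93) and Igf2 with Igfbp3 (0.828), by Pearson's r alone. None of these passed in the other arm. These points share their library and its connective tissue content, whose part was not tested. Igf2 and Igf2r had r = 0.898 in the mimic arm (permutation p = 0.000972, adjusted 0.0219), rho = 0.855 (permutation p = 0.00458, adjusted 0.0803) and r = 0.784 without the 2 farthest, with r = 0.947 within sham and 0.902 within MOV, and r = 0.719 in the control arm (adjusted permutation p = 0.195).

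**Figure D4:**
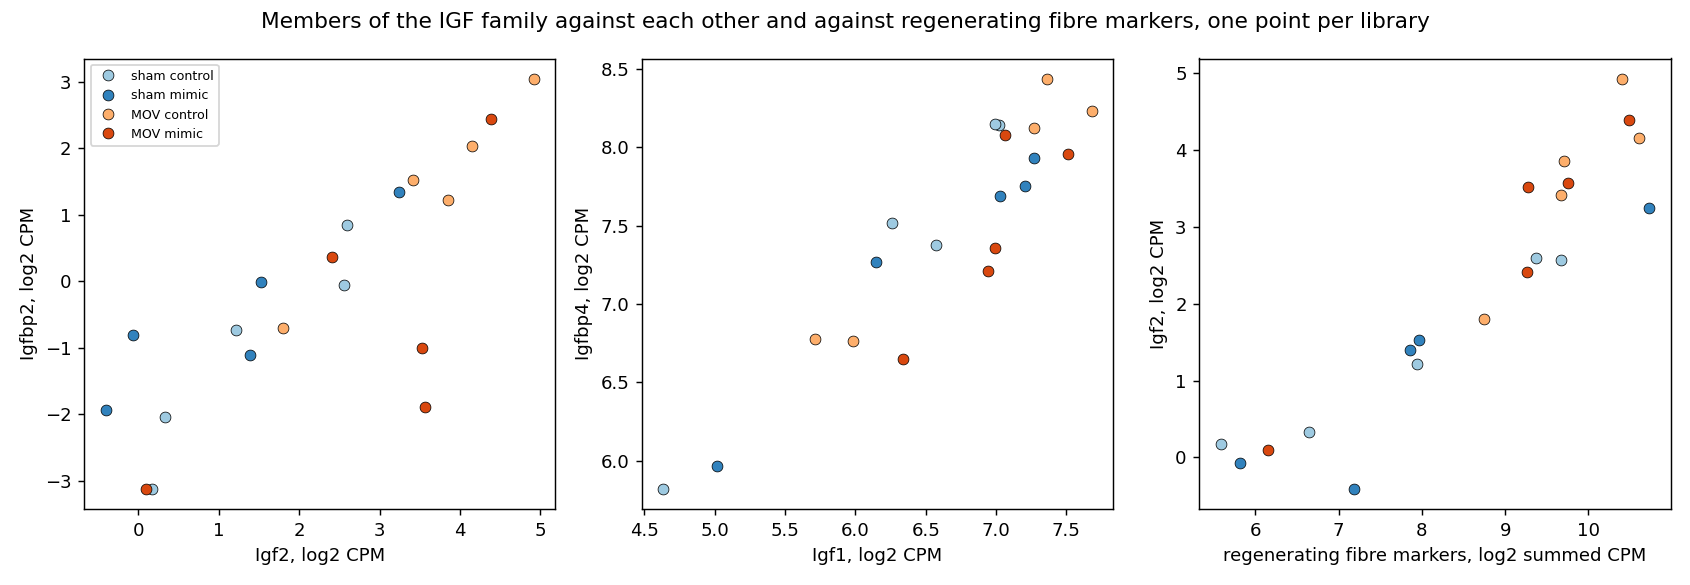
Each point is 1 of 20 libraries, coloured by group, with log2 CPM of Igfbp2 against Igf2 (left), of Igfbp4 against Igf1 (middle), and of Igf2 against the log2 summed CPM of 5 regenerating fibre markers (right). Igf2 rises with Igfbp2 except in MOV mimic 1 and 3, Igf1 rises with Igfbp4, and sham libraries with many regenerating fibre transcripts lie beside MOV libraries in Igf2.

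The genes whose log2 CPM was most like that of each member over 20 libraries, among 10542 genes with a mean of at least 5 CPM, are given as a description. For Igf1 they were Col1a2 (r = 0.967), Antxr1 (0.96) and Cdh11 (0.958), and for Igfbp4 they were Fstl1 (0.957), Mmp2 (0.956) and Sparc (0.954). Col1a2 encodes a chain of type I collagen, Mmp2 a matrix protease and Sparc a collagen-binding matrix protein. For Igf2 they were Rbfox2 (0.959), Myog (0.947) and Cdkn1a (0.945), of which Myog encodes the transcription factor myogenin and Cdkn1a a cell cycle inhibitor of differentiating myoblasts. Igf2r was most like Myom3 (0.927), Fgf11 (0.911) and Usp5 (0.91), and Igfbp2 most like Vash2 (0.893), Fgfr4 (0.875) and Utrn (0.871). Igfbp6 was most like Clec3b (0.937), Ace (0.915) and Lrrn4cl (0.877), Igfbp7 most like Fbln2 (0.893), Lamb1 (0.886) and Pcolce (0.872), and Igfbp3 most like Lama4 (0.819), Aoc3 (0.811) and Itgb3 (0.792). For Igf1r (Eftud2, mt-Ts2 and Srcap, 0.771 to 0.76) and Igfbp5 (Dynll2, Rps28 and Ganc, 0.801 to 0.758) the likeness was lowest. The r values cover libraries of all 4 groups and carry no test.

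Regulators and partners of the system were taken from 5 lists with 57 genes. edgeR called 0 of them in any comparison, so the genes named here were picked from the calls of DESeq2 in MOV control against sham control, after their values were seen. Over all genes, 18.2% passed an unadjusted p under 0.05 in edgeR and DESeq2 called 6.10%, and the counts of each list are to be read against these shares. Of 7 genes of the Igf2 locus and Igf2 mRNA regulators, 6 were tested and 2 were called higher by DESeq2, with 2 higher at an unadjusted p under 0.05 in edgeR. H19, the imprinted noncoding RNA next to Igf2, was at 602, 2070, 4164, 3006 and 868 CPM in sham control 1 to 5. In MOV control 1 to 5 it was at 5271, 5269, 4728, 7978 and 5113 CPM. All 5 MOV control libraries lay above all sham control libraries, and 4.89% of all genes had ranges free of overlap between these groups. The log2FC was 1.41 (SE 0.44), with an adjusted p of 0.127 by edgeR and 0.0164 by DESeq2. In sham mimic 2, H19 was at 4365 CPM, the highest of the sham mimic group as for Igf2, and in MOV mimic 5 it was at 397 CPM, the lowest of the MOV mimic group as for Igf2. Igf2bp2, an RNA-binding protein that associates with Igf2 mRNA, had a log2FC of 1.19 (SE 0.33), with an adjusted p of 0.0954 by edgeR and 0.0180 by DESeq2. In MOV mimic against sham mimic the edgeR log2FC was 0.86 (SE 0.63) for H19 and 0.68 (SE 0.38) for Igf2bp2, and neither tool called them.

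Of 8 genes that set IGF availability, 5 were tested, and DESeq2 called 1 higher and 1 lower. Stc2, an inhibitor of the protease that cuts Igfbp4, had a log2FC of 0.90 (SE 0.24), with an adjusted p of 0.0879 by edgeR and 0.0147 by DESeq2, and was between 2.63 and 4.68 CPM in sham control and between 5.22 and 9.20 CPM in MOV control. Igfals, which encodes the acid labile subunit of the circulating IGF complex, had a log2FC of -2.0 (SE 0.51), with an adjusted p of 0.0763 by edgeR and 0.00368 by DESeq2. It was between 1.98 and 5.83 CPM in sham control and between 0.151 and 1.71 CPM in MOV control, from 33 to 75 and from 3 to 27 counts. The ranges of both genes were free of overlap, as were those of 4.89% of all genes, but both were picked from calls in this same comparison. In MOV mimic against sham mimic the edgeR log2FC was 0.151 (SE 0.385) for Stc2 and -1.16 (SE 0.686) for Igfals, and neither tool called them. Igfbp1, a liver-derived binding protein, had 0 counts in all libraries.

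**Figure D5:**
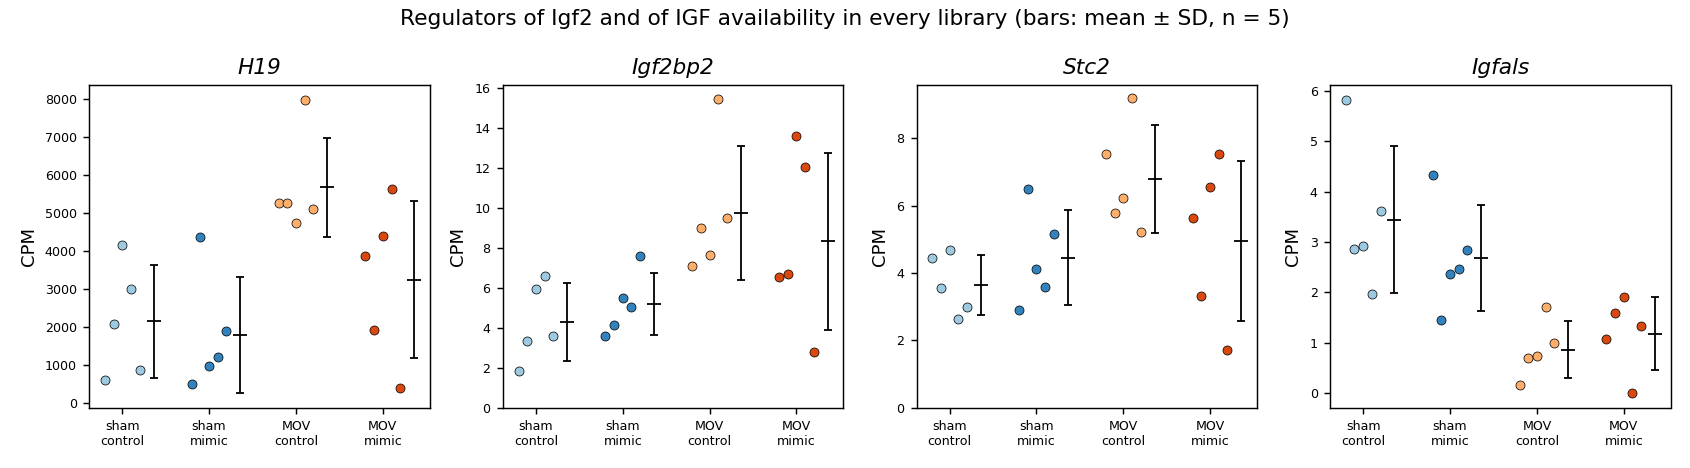
Level in CPM (y axis, linear, from 0) of H19, Igf2bp2, Stc2 and Igfals in every library of the 4 groups (x axis), with the mean ± SD of 5 libraries. MOV control lies above sham control without overlap for H19, Igf2bp2 and Stc2 and below it for Igfals, and the mimic groups overlap for all 4. The genes were picked from calls between MOV control and sham control, where 4.89% of all genes had ranges free of overlap.

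The growth hormone axis, which drives Igf1 transcription through the receptor Ghr, the kinase Jak2 and STAT5, had 3 of its 6 genes called lower in MOV control by DESeq2 and 0 by edgeR. Of 6 genes, 5 were lower at an unadjusted p under 0.05 in edgeR, where 18.2% of all genes passed in either direction, and the 3 calls of DESeq2 stand beside 6.10% of all genes. The median log2FC of the list was -0.65, against 0.04 over all genes. Jak2 was at 65.6 ± 14.7 CPM in sham control and 35.0 ± 9.51 CPM in MOV control (SD, n = 5 each), with a log2FC of -0.90 (SE 0.20) and an adjusted p of 0.0630 by edgeR and 0.00327 by DESeq2. Ghr had a log2FC of -0.65 (SE 0.19; adjusted p = 0.108 by edgeR, 0.0321 by DESeq2). Stat5b had a log2FC of -0.65 (SE 0.21; adjusted p = 0.129 by edgeR, 0.0489 by DESeq2). In MOV mimic against sham mimic the median log2FC was -0.50, 2 of 6 were lower at an unadjusted p under 0.05 in edgeR, beside 13.4% of all genes in either direction, and neither tool called any. The 9 muscle fibre markers had a median log2FC of -0.19 under the control virus and -0.46 under the mimic. In edgeR 2 of 9 were lower at an unadjusted p under 0.05 in each comparison and 1 was higher under the control virus, and DESeq2 called 1 lower under the control virus and 0 under the mimic. Their part in the values of the growth hormone axis was not tested.

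Downstream of the receptor 1 gene was called. Of 12 adaptors and brakes of receptor signalling, 11 were tested, edgeR called 0 and DESeq2 called 1, Grb14, an inhibitory adaptor of the insulin receptor, which had a log2FC of -0.68 (SE 0.21) with an adjusted p of 0.123 by edgeR and 0.0425 by DESeq2. In the list of 24 genes of PI3K, AKT and mTORC1, all were tested, and edgeR and DESeq2 called 0. At an unadjusted p under 0.05, 2 were higher and 1 was lower in edgeR, and the median log2FC of 0.02 stood beside 0.04 over all genes.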

How the data were processed

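RNA-seq was performed on 20 plantaris libraries. Whole-number raw counts for each Ensembl gene were deposited by the authors in one table for the control and one for the mimic libraries. Per the labels and the paper's methods, reads passed FastQC 0.11.9, Trim Galore 0.6.10 and cutadapt 4.4, were aligned to GRCm38 with HISAT2 2.0.5 and counted with featureCounts 1.5.0-p3, and were tested with DESeq2 1.34.0. The strand setting and the annotation release were not given in the sources used here. Symbols were found for 32640 of 54532 genes.

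Differences were tested with edgeR 4.0.16 (TMM, filterByExpr, quasi-likelihood test, two-sided, Benjamini-Hochberg over all genes tested, adjusted p threshold 0.05) on the 10 libraries compared, and on 20 libraries for the interaction of surgery and virus. Alternatives were DESeq2 1.42.0, limma 3.58.1 (voom with sample quality weights), edgeR with DESeq2 size factors, without a filter or with a minimum of 10 counts over the libraries, with the replicate number as a block, with all 20 libraries fitted together, and without each library in turn. Log2 CPM had a prior count of 2. Levels per kb used exon lengths of GENCODE vM1. Counts set the precision: a library at 0 allows up to 3 counts, which covers counting error only. Correlations used exact permutation within surgery.

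The members and the lists of markers and pathway genes were chosen with earlier results of these data known. Named are all members, DEGs of each pathway list in MOV control against sham control (up to 3 in each direction), and for each member the 3 genes most like it over the libraries. Of the 11 marker lists, tenocyte, Schwann cell, adipocyte, macrophage and lymphocyte markers are given with the observations. The fits were tested on simulated data. R 4.3.3, Python 3.11.15, pandas 2.3.3, scipy 1.17.1 and matplotlib 3.10.9 were used.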

Additional observations from a re-analysis of the deposited data

Results flagged for a closer look

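In 5 of 40 sets of a gene and a group, 1 library lay far from the other 4 by Dixon's ratio of gap to range, with a critical value of 0.71. Chance alone marks about 1 in 20 such sets where values are normally distributed, which was not checked for CPM. Igf2 in sham mimic 2 was at 9.32 CPM, with the next library at 2.77 CPM (ratio 0.755). Igf2r in MOV control 4 was at 220.1 CPM, next to 156 CPM (ratio 0.852). Igfbp2 in MOV mimic 4 was at 5.31 CPM, next to 1.17 CPM (ratio 0.779). Igfbp5 in MOV control 5 was at 1058 CPM, next to 637 CPM (ratio 0.837). Igfbp6 in sham mimic 4 was at 80.7 CPM, next to 58.1 CPM (ratio 0.76). All 5 were the highest library of their group.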

How the results depend on the processing

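With 5 libraries a group, a wide spread and few counts for Igfbp2 and Igf2, the counts of calls depended on the tool. In MOV control against sham control, edgeR gave 1 DEG in the 14974 genes, DESeq2 913, limma with voom 294, no filter 388, at least 10 counts in total 163, a joint fit of all 20 libraries 36, and the removal of single libraries between 0 and 426 (426 without sham control 3, 318 without MOV control 5). Members called there were 0 in edgeR, 3 in DESeq2, 2 without a filter (Igf2 and Igfbp6) and between 0 and 1 with a library left out. In MOV mimic against sham mimic, 0 DEGs in edgeR became 221 in DESeq2, 2 in limma with voom, 1 without a filter, 3 with all 20 libraries and between 0 and 101 with a library left out (101 without MOV mimic 5). In MOV mimic against MOV control, 0 became 3 in DESeq2 and 1 with all 20 libraries, and in the interaction 0 became 1 in DESeq2. The cause was not tested.

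The labels do not say that equal replicate numbers are the legs of one mouse. Deviations of same-numbered control and mimic libraries correlated with 0.00961 to 0.874 in sham and 0.085 to 0.49 in MOV over 10542 genes, 4 of 5 pairs being over 0.1 in each, and 2 of 5 (sham control), 2 of 5 (sham mimic), 3 of 5 (MOV control) and 5 of 5 (MOV mimic) libraries correlated best with their own number. In MOV against sham, equal numbers belong to different mice, so the block there does not pair legs of 1 mouse. Deviations of equal numbers correlated there with a mean of -0.126 (control virus) and -0.149 (mimic virus), against 0.042 and 0.0408 for unequal numbers. With the replicate block, DESeq2 gave 722 DEGs and 3 members in MOV control against sham control, 116 DEGs in MOV mimic against sham mimic, 127 DEGs and 1 member in MOV mimic against MOV control, and 5 DEGs in the interaction. The member was Igfbp2 (log2FC -2.37, DESeq2 adjusted p = 0.0400), lower in the mimic for 5 of 5 numbers. Igfbp2 passed the filter on low counts in neither comparison of groups without MOV control. Its entry here thus rested in part on the MOV control libraries, where it is highest. edgeR with the block gave 1, 0, 0, 0 and 0 DEGs and no member, and in MOV mimic against MOV control 2 of 10 members, Igfbp2 and Igf2, passed an unadjusted p under 0.05 in it. In sham mimic against sham control Igfbp6 did so with the block in edgeR (unadjusted p = 0.0352) and DESeq2 (unadjusted p = 0.0488), with adjusted p of 0.9995 and 1.0. In the interaction Igfbp2 had a log2 difference of -3.25 with the block in DESeq2 (unadjusted p = 0.00451, adjusted p = 0.429) and -2.81 in edgeR (unadjusted p = 0.0617).

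Of 954 other settings of 48 log2 values of members, 866 kept direction and side of the threshold, 10 passed the threshold that edgeR had not, 0 lost it and 78 changed sign, in 23 values, all of them values not called. Sign changes with limma and voom were Igfbp5 in MOV control against sham control (-0.093), Igfbp4 in MOV mimic against sham mimic (-0.012), Igf1 (-0.04) and Igfbp3 (-0.028) in MOV mimic against MOV control, Igf1r (-0.019) and Igfbp7 (0.053) in sham mimic against sham control, and Igfbp3 (-0.042) and Igfbp5 (0.191) in the interaction. Igf2 in sham mimic against sham control changed sign with DESeq2 (0.008) and with its size factors in edgeR (0.002). With the replicate block, Igfbp7 in sham mimic against sham control (0.002, DESeq2) and Igfbp5 in the interaction (0.002, edgeR, and 0.019, DESeq2) changed sign. With a library left out, the log2 values in MOV control against sham control ran from -0.139 to 0.134 for Igfbp5. With a library left out, the log2 values in MOV mimic against sham mimic ran from -0.047 to 0.257 for Igf2r, from -0.139 to 0.237 for Igfbp4 and from -0.024 to 0.115 for Igfbp5. With a library left out, the log2 values in MOV mimic against MOV control ran from -0.173 to 0.267 for Igf1, from -0.155 to 0.032 for Igf1r, from -0.13 to 0.331 for Igfbp3, from -0.3 to 0.149 for Igfbp6 and from -0.223 to 0.137 for Igfbp7. With a library left out, the log2 values in sham mimic against sham control ran from -0.001 to 0.474 for Igf1, from -0.918 to 0.343 for Igf2, from -0.035 to 0.161 for Igf2r, from -0.137 to 0.105 for Igfbp3, from -0.377 to 0.078 for Igfbp4 and from -0.172 to 0.139 for Igfbp7. With a library left out, the log2 values in the interaction ran from -0.445 to 0.03 for Igf1, from -1.046 to 0.317 for Igf2, from -0.129 to 0.321 for Igfbp3, from -0.362 to 0.092 for Igfbp4, from -0.105 to 0.187 for Igfbp5, from -0.026 to 0.419 for Igfbp6 and from -0.211 to 0.153 for Igfbp7.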

Other observations

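Of 6 lymphocyte markers, 2 passed the filter on low counts between the sham groups and 4 in MOV mimic against sham mimic, so that some entered through the MOV mimic libraries, and their levels are given only as sums. DESeq2 called 1 of 8 macrophage markers higher in MOV mimic against sham mimic, beside 1.48% of all genes, and edgeR 0. Of 4 adipocyte markers 3 were tested, with a median log2FC of -1.65 under the control virus and -1.40 under the mimic. In each, 1 of 3 was lower at an unadjusted p under 0.05 in edgeR (18.2% and 13.4% of all genes) and 2 of 3 in DESeq2, and neither tool called one. Only 2 of 4 passed the filter between the MOV groups. Neither tool called a tenocyte or Schwann cell marker in MOV against sham under either virus. The 8 macrophage markers summed to between 238 and 1018 CPM in sham control and between 233 and 883 CPM in MOV control. With the mimic virus they summed to between 254 and 911 CPM after sham surgery and between 481 and 931 CPM after MOV. The 6 tenocyte markers summed to between 288 and 967 CPM in sham control and between 337 and 1124 CPM in MOV control, and to between 369 and 1113 CPM and between 683 and 1150.0 CPM in the mimic groups. The 4 Schwann cell markers ran from 11.6 to 82.2 CPM over all groups, the 4 adipocyte markers from 0.0635 to 19.7 CPM, and the 6 lymphocyte markers from 2.48 to 29.6 CPM, with medians under the control virus of 8.19 CPM (sham) and 10.9 CPM (MOV), and under the mimic of 5.98 and 23.0 CPM.

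Pappa, the protease that cuts Igfbp4, was under the mimic virus at 1.39 ± 0.96 CPM after sham surgery and 3.81 ± 1.3 CPM after MOV (SD, n = 5). Its log2FC in that comparison was 1.43 (SE 0.48), with an adjusted p of 0.290 by edgeR and 0.10 by DESeq2. In the control groups Pappa was at 1.16 ± 0.69 and 2.21 ± 1.49 CPM. Irs2, an adaptor of the receptor, had a log2FC of -0.76 (SE 0.23) in MOV mimic against sham mimic, with an adjusted p of 0.285 by edgeR and 0.10 by DESeq2. Both genes are named after their values were seen.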
